A study of Gallus gallus with 4 samples.

Results

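The transcripts assembled on chromosome W of the chicken were examined in oocytes at the lampbrush chromosome (LBC) stage. All transcript and exon entries that the deposited assembly placed on W were taken, with no choice by level. They were 209 of 40714 transcripts and 983 of 315764 exon entries, and they formed 156 of the 22884 transcription units (TUs) of the assembly. A TU was 1 gene of the StringTie assembly, and its values are those of whichever of its transcripts had the highest FPKM, the count of fragments scaled to transcript length and library size.

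The libraries were stranded poly(A) libraries of single wild-type chicken oocytes at the LBC stage, 2 of the isolated nucleus and 2 of the ooplasm. Their description in the study gives no treatment, and no age of the birds was used here. According to the study's methods, the reads of all experiments were pooled by strand before assembly, and earlier total RNA libraries of oocyte nuclei were added. The methods do not say whether ooplasm reads entered the pool, so nucleus and ooplasm were not compared, no value has a replicate error, and all results are descriptions of 1 assembly without a test across TUs.

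In birds the female carries the sex chromosomes Z and W, and only she has a W. The pair descends from ordinary chromosomes between which exchange stopped over most of the length, so that W kept a small set of genes with a counterpart on Z and gathered satellite repeats and retrovirus-like elements, and it is largely heterochromatic in somatic cells. In the growing oocyte the meiotic chromosomes take the lampbrush form, with transcribed chromatin loops extending laterally from condensed chromomeres, and W is present there as 1 of the partners of the ZW bivalent. A long intron, an exon and an empty stretch are here only statements of the assembly, since stretches in which reads could not be placed or fell under the coverage minimum also appear as empty.

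Spliced TUs were sparse on W, whereas single-exon TUs were not. From the start of the first TU, FORW.10900, to the end of the last, FORW.10987 (chrW:56746-14052370 of ASM2420605v2), W measured 14 Mb. It carried 4.29 spliced TUs per Mb, the lowest value of the 40 nuclear chromosomes of the assembly. Z had 9.71 and chromosomes 11 to 15 had 19.9 to 29.5. The lengths of chromosomes 11 to 15 from first to last TU, 12.7 to 20.1 Mb, were near that of W. All lengths used here leave out the chromosome ends beyond those TUs. W had 6.86 single-exon TUs per Mb, against 2.81 on Z and 4.90 to 6.60 on chromosomes 11 to 15. Accordingly 96 of 156 W TUs (61.5%, 95% Wilson interval 53.7 to 68.8) had 1 exon, compared with 24.9% of all nuclear TUs and with at most 30.5% on any other chromosome (chromosome 2). The intervals in this text treat TUs as independent and cover counting only.

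Positions along W were uneven. The TUs formed 6 blocks separated by 5 empty stretches of at least 500 kb, which together took 5.73 Mb or 40.9% of the length. Such stretches took 5.62% over all nuclear chromosomes, 13.1% on Z and at most 7.45% on chromosomes 11 to 15. Only chromosomes 29 (60.3%) and 31 (55.1%) had larger shares than W. The longest of W ran for 2.40 Mb between FORW.10961 and REV.10773 (chrW:7853189-10255251), and 2 of the 14 bins of 1 Mb counted from the first TU had no TU. The second measured 1.52 Mb and lay between FORW.10975 and FORW.10976 (chrW:11068941-12590425). The other 3 were shorter, with 661 kb between FORW.10933 and FORW.10934 (chrW:3307637-3968798), 628 kb between REV.10749 and FORW.10946 (chrW:4865456-5493458) and 514 kb between REV.10789 and FORW.10979 (chrW:12763777-13277540). A longer single empty stretch, of 3028 kb, was found on chromosome 29 only.

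**Figure D1:**
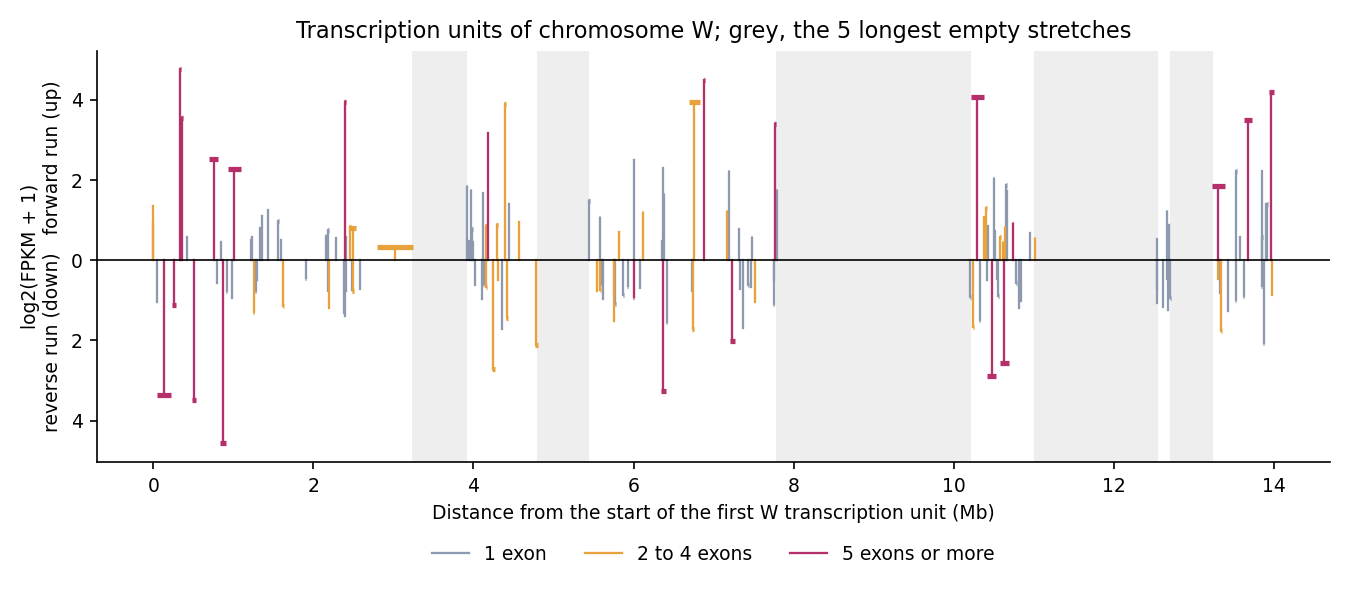
Transcription units (TUs) of W by distance from the start of the first TU in Mb, with log2(FPKM + 1) upwards for the forward and downwards for the reverse run; horizontal bars give the span of a TU and colours its exon number. The 96 single-exon TUs are low throughout, the 22 TUs with at least 5 exons hold most of the high values, and the 5 longest empty stretches (grey) leave 6 blocks.

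The blocks differed in content. The first block, of 3.25 Mb, held 44 TUs, 9 of them with at least 5 exons. The fourth, of 0.814 Mb between the 2 longest empty stretches, held 25 TUs, or 30.7 per Mb. Over the 6 blocks the density ran from 13.5 to 51.9 per Mb. Whole chromosomes 11 to 15 had 25.7 to 34.4 per Mb, but these include their empty stretches, whereas blocks leave out long ones by definition. The fifth, of 0.173 Mb, held 9 TUs, and all 9 had 1 exon. In total, the spans of W transcripts covered 23.5% of W, against 33.2% of Z and 61.6 to 76.9% of chromosomes 11 to 15. The share was 51.6% over all nuclear chromosomes, and lower than on W only on chromosomes 29 (21.6%) and 31 (14.1%). The exons of W transcripts covered 6.46% of W. One TU weighed on these values of W. FORW.10933 spanned 453 kb, the longest span of W, but had 3 exons with coverages from 2.2 to 8.35 reads per base and an FPKM of 0.260. Without it, the covered share was 20.2%, and the empty stretch around its place was 1.33 Mb.

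Both directions of transcription contributed in near equal numbers. The forward run gave 77 and the reverse run 79 of the W TUs (49.4% forward, interval 41.6 to 57.1). No W TU had a strand entry against its run. Such entries were rare elsewhere too, with 20 of 1097 TUs on Z, 67 of 2506 on chromosomes 11 to 15 and 511 of all 22882 nuclear TUs. On Z, 39.4% of TUs were forward, and outside the longest stretch of Z whose TUs of at least 5 kb all came from 1 run (chrZ:74718943-83875883, 264 TUs) it was 51.6%.

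The level of W TUs went with their exon number. FPKM was used as deposited, and the FPKM percentile gives the rank of a TU among all TUs of its run. Over all 156 W TUs the median FPKM was 0.951 (order-statistic interval 0.838 to 1.16), the lowest of the 40 chromosomes. Z followed with 1.28, a value that rose to 2.34 without its distal same-run stretch, and chromosomes 11 to 15 had medians of 1.90 to 3.63. Among TUs assembled with at least 5 exons, the 22 of W showed no such deficit. Their median FPKM was 8.97 (3.86 to 14.3), compared with 6.06 (5.03 to 7.35) for 441 such TUs of Z and 7.76 (6.97 to 8.46) for 1116 such TUs of chromosomes 11 to 15, so the interval of W contained the medians of both. They were rare, at 1.57 per Mb against 5.03 on Z and 12.8 on chromosomes 11 to 15, and they were long, with a median span of 57.2 kb against 27.3 and 17.2 kb. This class is tied to level, because the assembly required at least 5 reads over a junction. Weak TUs can be absent from it or listed with fewer exons, so their level on W is not covered by this comparison.

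**Figure D2:**
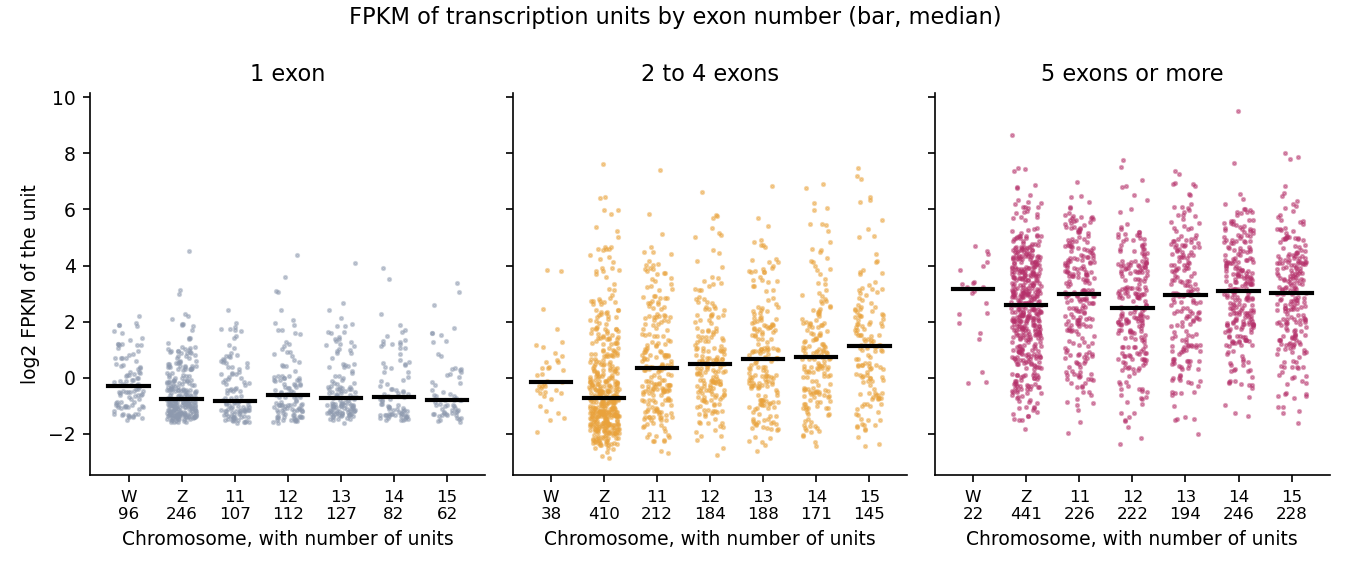
log2 FPKM of each TU (points) and the median (bar) for W, Z and chromosomes 11 to 15, split into 1 exon, 2 to 4 exons and 5 exons or more, with the number of TUs under each chromosome. The W medians of 0.818 for 1 exon and 8.97 for 5 exons or more lie at or above those of the other chromosomes shown, while W has 22 TUs in the last class.

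The single-exon TUs of W were weak but not weaker than those of Z and of chromosomes 11 to 15. Their median FPKM was 0.818 (0.688 to 0.984), against 0.591 (0.549 to 0.676) on Z and 0.611 (0.555 to 0.664) over chromosomes 11 to 15 pooled. The interval of W lay above both, although it overlapped that of Z without the distal stretch (0.643, interval 0.567 to 0.739). It also overlapped the interval of each of chromosomes 11 to 15 taken singly, whose upper ends were 0.726 to 0.773. Over all its TUs, W had a median span of 5.59 kb, against 8.82 kb on Z and 10.1 to 11.3 kb on chromosomes 11 to 15. Among single-exon TUs alone, the median span of W, 3.81 kb, was close to the 3.84 kb of Z and the 3.76 kb of chromosomes 11 to 15. The strongest was FORW.10949 with an FPKM of 4.63 over 3.37 kb, and the longest was FORW.10946 with 20.9 kb at an FPKM of 1.77, right after the fourth longest empty stretch. FORW.10949 was named after its value was seen. The 96 single-exon TUs held 28.2% of the summed FPKM of W, against 3.33% on Z and 1.47 to 3.82% on chromosomes 11 to 15. The authors' minimum coverage for single-exon transcripts was 3.5 reads per base, and the lowest single-exon coverage on W was 3.67 (REV.10728), so weaker ones would not have been listed.

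Between these classes stood 38 TUs with 2 to 4 exons, whose median FPKM of 0.911 (0.744 to 1.30) was near that of the single-exon TUs of W and below the 1.53 (1.35 to 1.68) of chromosomes 11 to 15. On Z the class had a median of 0.606, and of 1.19 without the distal stretch. On W, 29 of the 60 spliced TUs had just 2 exons. In 18 of the 60 (30.0%) exons filled at least 90% of the span, and 17 of these had 2 exons. That share was 5.88% on Z, 11.99 to 16.3% on chromosomes 11 to 15 and at most 17.6% on any other chromosome (chromosome 4).

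The 10 TUs with the highest FPKM on W were all spliced and together held 42.1% of the summed FPKM of W. FORW.10902 was the highest with an FPKM of 26.1 over 5 exons and 6.14 kb (chrW:393461-399600), at percentile 92.2 of its run and in place 1730 of all 22882 nuclear TUs. Its exons differed widely, from 11.7 to 834 reads per base. REV.10726 followed with 22.7 over 5 exons and 73.5 kb (chrW:886996-960502), and its exon coverages stayed between 205 and 303. FORW.10955 (21.5, 6 exons), FORW.10987 (17.4, 11 exons) and FORW.10965 (15.97, 47 exons) came next. FORW.10954 had an FPKM of 14.5 with 4 exons over 136 kb, and FORW.10943 one of 14 with 4 exons over 26.6 kb, and both were the highest of the class with 2 to 4 exons. FORW.10930 (14.3), FORW.10903 (10.7) and FORW.10982 (10.3) completed the list. On W, 11 TUs (7.05%) exceeded an FPKM of 10, against 20.0% of all nuclear TUs, 16.6% on Z and 18.5 to 27.8% on chromosomes 11 to 15.

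The 5 TUs with the longest spans were FORW.10933, described above, REV.10714 with 177 kb and 18 exons, FORW.10979 with 163 kb and 6 exons, FORW.10919 with 162 kb and 25 exons, and FORW.10965 with 159 kb and 47 exons. The 5 TUs with most exons were FORW.10965 with 47, REV.10778 with 37, FORW.10916 with 28, FORW.10919 with 25 and REV.10781 with 22. Over all W representatives the median intron was 1469 bp, against 1042 bp on Z and 554 to 721 bp on chromosomes 11 to 15. Of the 343 introns, 10 (2.92%) reached 50 kb, against 0.880% on Z and 0.257 to 0.499% on chromosomes 11 to 15. Only chromosome 38 had a larger share. The longest of the 10, of 374 kb, belonged to FORW.10933, whose low coverage is given above. Another, of 81.5 kb, lay in the 2-exon FORW.10931, which had a coverage of 7.83 reads per base. The share without these TUs was not computed.

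The 22 TUs with at least 5 exons were then compared with the rest of the genome by their internal exon lengths. An internal exon is bounded by splice sites at both ends, so its length is a property of the transcript that does not depend on where coverage fades. Lengths were read in the direction of transcription, and a shared chain was 3 consecutive internal exons of the same 3 lengths in the same order. In 17 of the 22 W TUs (77.3%, interval 56.6 to 89.9) at least 1 chain was found on Z. Chromosome 12 shared chains with 1 W TU and chromosomes 11, 13, 14 and 15 with none. Of the 38 autosomes, 32 shared none, and the highest number was 3 W TUs, on chromosome 10. Over all 38 autosomes together, 8 of the 22 W TUs shared at least 1 chain, and most of these 8 also had a chain on Z. Z shared 144 chains with W TUs, and chromosome 10 shared 12. For W TUs with chains on both Z and an autosome, the run lengths given below are those on Z only. Z offered 4367 chains to the search, and chromosome 1, where no W TU found a match, offered 10675. Within W no chain was shared by any 2 TUs.

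In 13 of the 17 W TUs the shared run was longer than 3 exons. The 17 W TUs had 232 internal exons in all. Of these, 203 (87.5%) had a partner of equal length in the same order on the Z TU, when unequal exons in between were allowed. The TUs and their partners were chosen by shared runs, so this share is partly set by that choice. No such share is given for other TUs. FORW.10965 and FORW.11051 (chrZ:12329802-12478515) had 47 exons each and shared an unbroken run of 33 internal exon lengths. FORW.10919 and REV.11121 (chrZ:62614769-62676859) had 25 exons each, and all 23 internal exons were equal. REV.10778 and FORW.11264 (chrZ:52707909-52757268) shared a run of 22. REV.10761 and REV.10837 (chrZ:9368996-9390215) agreed in all 15, and FORW.10930 and FORW.11013 (chrZ:2652194-2660432) in all 10. In this last pair the lengths ran, from the 5′ side, through 79, 170, 174, 167, 149, 152, 225, 108, 145 and 151 bp on both chromosomes.

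The remaining pairs of the 10 with the longest runs were REV.10781 with REV.10850 (run of 11 exons), FORW.10987 with FORW.11007 (8), FORW.10960 with REV.11007 (7), REV.10767 with REV.10892 (6) and FORW.10916 with REV.10824 (5). REV.10759 with FORW.10991 tied with the last of these at 5 exons and came second by position. The run of FORW.10987 read 90, 194, 135, 75, 54, 213, 138 and 145 bp. For FORW.10916, with 28 exons like its Z partner, 19 of 26 internal exons were equal in order although the longest unbroken run was short. No sequence and no gene name was used here, so whether such a pair is the W and the Z copy of 1 gene was not tested.

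**Figure D3:**
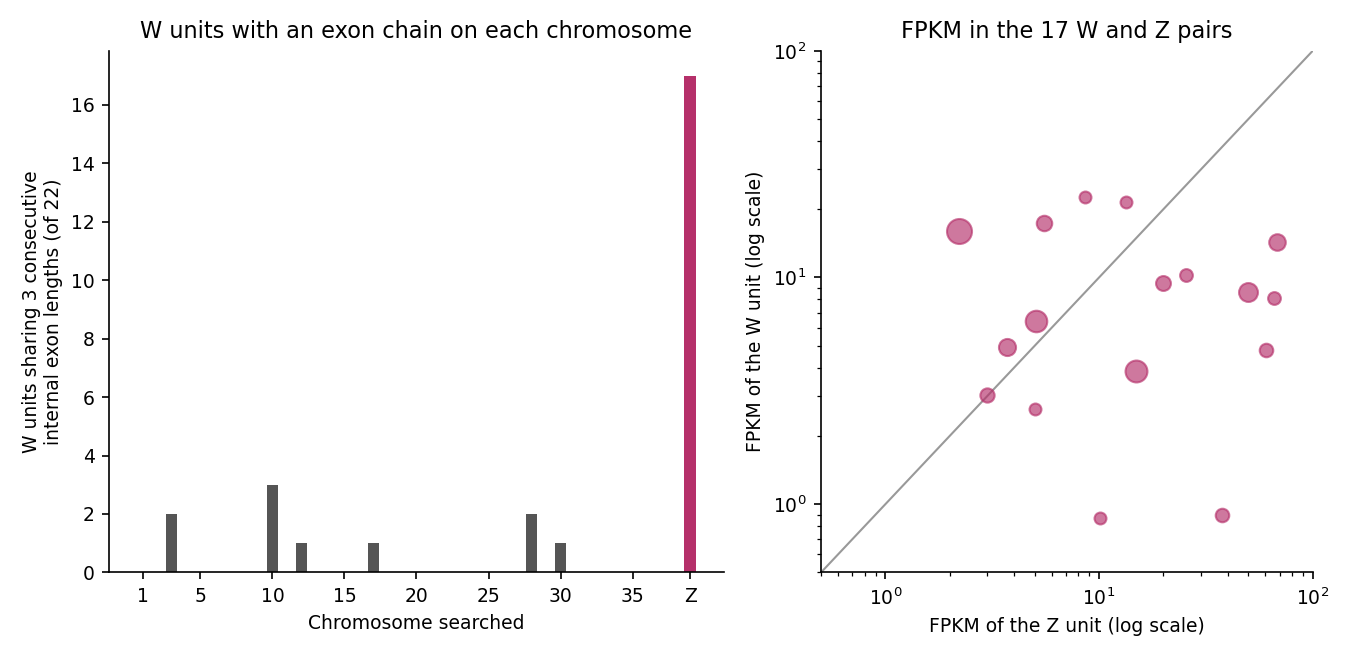
Left, number of the 22 W TUs with at least 5 exons that share 3 consecutive internal exon lengths with a TU of each chromosome (bars, 38 autosomes and Z); Z shares chains with 17, no autosome with more than 3. Right, FPKM of the W TU against the FPKM of the Z TU in each of the 17 pairs on log axes, with larger circles for longer shared runs and the line of equal FPKM; 10 pairs lie below it.

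The W TUs of these pairs did not share one level relative to Z. W had the lower FPKM in 10 and the higher in 7 of the 17 pairs. The ratio of W to Z had a median of 0.474 and ran from 0.0237 to 7.24, and 5 pairs lay within a factor of 2. The widest difference towards W was that of FORW.10965, with an FPKM of 15.97 against 2.21 on Z, followed by FORW.10987 with 17.4 against 5.53. In the opposite direction, REV.10761 had 8.61 against 49.9, FORW.10930 had 14.3 against 67.9, FORW.10916 had 4.79 against 60.6 and FORW.10919 had 3.86 against 14.9. By their strongest transcript, REV.10767 with 3.03 against 3.00, REV.10781 with 4.96 against 3.72 and REV.10778 with 6.41 against 5.07 stood close to their partners. These W TUs had 8, 3 and 4 isoforms, and levels over all isoforms were not compared. FORW.10960 had 9.47 against 20.0. The lowest ratio was that of REV.10759 with 0.896 against 37.8 for FORW.10991. Reads of near-identical exons on W and Z can be placed on either copy, and the methods speak of unique reads without saying whether reads with several alignments were kept. The division of FPKM within a pair is therefore uncertain, and its part in these ratios was not tested.

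The Z partners lay between positions 1093763 and 62676859 of Z. Of the 17, 10 started no later than FORW.11051 at position 12329802, and its end lay at 14.1% of the length of Z, measured from its first to its last TU. This cut, at the partner of the longest chain, was taken from these results. The share of all Z TUs up to it is not given, so whether the partners cluster there was not tested. None of the 17 partners lay in the distal same-run stretch. Of these 17 W TUs, those that followed each other on W mostly had partners far apart, but many were not close on W either. Of the 16 consecutive pairs, 13 had partners more than 1 Mb apart on Z. The distances on W itself ran from 19.05 to 2477 kb, with up to 21 other TUs in between. FORW.10930 and FORW.10941 were 1770.5 kb apart on W, and their partners 1070.2 kb apart on Z. In 2 cases, named after the distances were seen, neighbours on W were also direct neighbours on Z, with no TU between them on either chromosome. FORW.10916 and REV.10726 ran towards each other on W with 19 kb between their ends, and their partners REV.10824 and FORW.11018 ran towards each other on Z with 2.08 kb between them and with both strands exchanged. REV.10781 and FORW.10973 pointed away from each other on W across 40.1 kb, and their partners REV.10850 and FORW.11040 did so on Z across 7.97 kb on the same strands.

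Exon lengths in the unbroken runs were equal by the way the runs were chosen. Intron lengths were not used in that choice, and they were seldom exactly equal. Inside the unbroken runs lay 148 introns with a counterpart on Z, and 2 of them had exactly the same length. A few TUs supplied many of the 148, with 32 in FORW.10965, 22 in FORW.10919 and 21 in REV.10778. The counts that follow are weighted towards these TUs. W had the longer intron in 85 (57.4%) and the shorter in 61, and the median ratio was 1.03. The distribution was one-sided at its ends, however. On W 32 introns were more than 2 times as long as on Z, 8 of them more than 10 times, whereas 7 were less than 0.5 times as long. The most extended was an intron of FORW.10930 with 11254 bp on W and 212 bp on Z. In FORW.10919 an intron of 22059 bp faced one of 1072 bp. Over their whole span, 16 of the 17 W TUs extended farther than their partner, with a median ratio of spans of 1.81 and a range from 0.551 to 2.97. The exception was FORW.10916 with 115 kb against 209 kb.

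**Figure D4:**
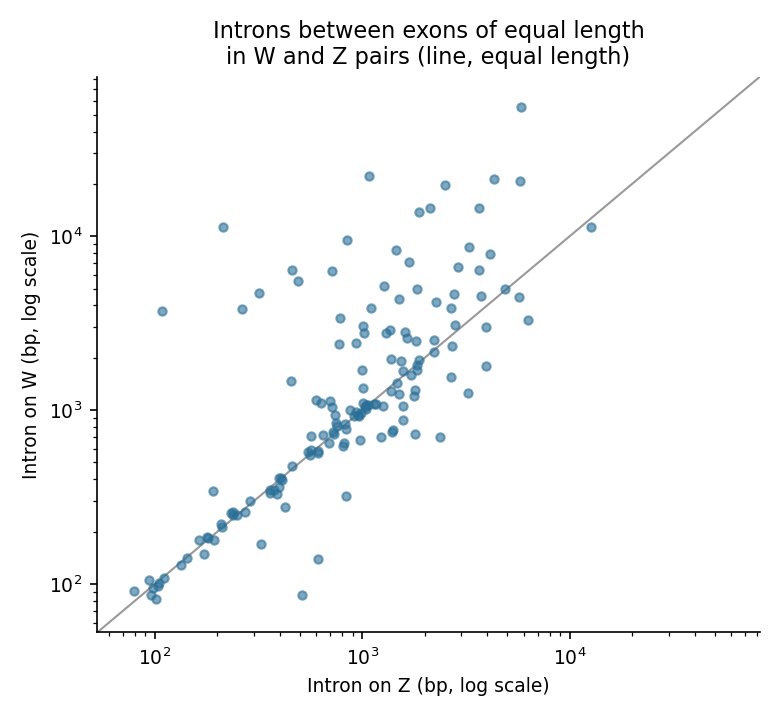
Length of each of 148 introns between exons of equal length in the W and Z pairs, Z on the horizontal and W on the vertical axis, in bp on log scales; the line marks equal length. The points follow the line (median ratio 1.03), but 32 lie above it by more than a factor of 2 and 7 below it by more than that factor.

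The 5 W TUs with at least 5 exons but no chain on Z were the first 5 of that class along W and all ended at or before position 587824 of W. They were REV.10714, REV.10715, FORW.10902, FORW.10903 and REV.10716, with FPKM of 9.32, 1.16, 26.1, 10.7 and 10.2. FORW.10903, with 12 exons, instead shared an unbroken run of 7 internal exon lengths with FORW.3401 of chromosome 3 (chr3:79348327-79505227, 15 exons), in the order 150, 76, 162, 104, 110, 98 and 114 bp. FORW.3401 had an FPKM of 46.1. REV.10714 shared runs of 4 exons with FORW.6989 of chromosome 10 and with REV.10103 of chromosome 28. The other 3 shared no chain of 3 exons with any chromosome.

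Transcripts on opposite strands overlapped on W mostly by nesting. A TU counted as overlapping when its span shared at least 1 bp with a TU of the other run. This held for 54 of 156 W TUs (34.6%, interval 27.6 to 42.4), against 38.2% of all nuclear TUs, 17.6% on Z and 39.9 to 48.7% on chromosomes 11 to 15. The share of W was thus near the background, which lay inside its interval. Among W single-exon TUs 25.0% overlapped, compared with 40.4% over all nuclear chromosomes, 40.2 to 63.4% on chromosomes 11 to 15 and 17.5% on Z. Among spliced W TUs 50.0% (interval 37.7 to 62.3) did, compared with 37.4%, 39.8 to 47.7% and 17.6% in the same order.

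The 34 overlapping pairs of W were nested in 27 cases (79.4%), that is, 1 TU lay wholly within the other. This was so in 37.7% of all nuclear pairs, in 35.5% on Z and in 30.4 to 45.7% on chromosomes 11 to 15. Nesting was not particular to W, since chromosomes 36 (80.0% of 5 pairs) and 38 (85.7% of 21 pairs) had higher shares. In 4 pairs of W the 3′ ends and in 3 pairs the 5′ ends overlapped. In 21 pairs the inner TU lay entirely inside 1 intron of the outer TU, and exons met exons in 12 pairs. Of the 96 single-exon TUs of W, 15 (15.6%) lay inside an intron of the opposite strand. This share was 4.04% over all nuclear chromosomes, 4.07% on Z and 1.79 to 6.10% on chromosomes 11 to 15. Chromosome 35 had a larger share (20.8%) and chromosome 38 a similar one (15.4%). The introns of W were also longer (above), and the part of intron length in the share of W was not tested.

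The 5 pairs with the highest FPKM of the weaker partner were all of this kind. FORW.10952 (3.90, 1 exon) and REV.10761 (8.61) were the highest, with 1.23 kb of overlap. FORW.10962 (3.04, 1 exon) lay within an intron of REV.10778 (6.41). FORW.10971 (2.70) and FORW.10972 (2.32), both with 1 exon, lay within introns of REV.10781 (4.96). REV.10793 (2.40, 2 exons) lay within FORW.10979 (2.63). The hosts in these 5 pairs shared exon chains with Z. Of all 12 TUs of W that held an opposite TU inside an intron, 10 did so, and the other 2, FORW.10931 and FORW.10954, had under 5 exons. A chain needs at least 5 exons, and 17 of all 22 such W TUs (77.3%) shared one with Z. Whether the hosts differ from that share was not tested. In 33 of the 34 pairs the longer TU had the higher FPKM, and the exception, REV.10759 with 0.896, held the strongest single-exon TU, FORW.10949, in an intron. Such a share is not given here for other chromosomes, so it is not shown to be particular to W. Over all nuclear chromosomes, the median FPKM was 7.10 for TUs with at least 5 exons and 0.654 for single-exon TUs.

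Close pairs without overlap were few. Within 1 kb, 4 pairs of W TUs pointed away from each other, or 2.56 per 100 TUs. This rate was 4.01 on Z, 4.25 to 8.51 on chromosomes 11 to 15 and 5.13 over all nuclear chromosomes. The counts on W are small and have no interval, and TUs are also sparser on W. They were REV.10733 and FORW.10927 (317 bp apart), REV.10742 and FORW.10939 (764 bp), REV.10771 and FORW.10960 (265 bp), and REV.10796 and FORW.10983 (296 bp). The first pair had close FPKM of 0.703 and 0.688. In the other 3 the forward TU was the stronger, with 2.22 against 0.949, 9.47 against 1.12 and 3.69 against 0.549. The only pair that ran towards each other within 1 kb was FORW.10967 and REV.10778, with 27 bp between their ends.

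Recurring lengths were then counted among the introns and internal exons of W. The 96 single-exon TUs of W have neither, so copies among them cannot show in this count. Whether equal lengths come from copies of a unit was not tested. Of 260 introns of at least 500 bp, 2 (0.769%, interval 0.211 to 2.76) had the exact length of an intron in another TU of W. Both measured 1620 bp and belonged to REV.10714 and FORW.10948, so that 1 length recurred. The share grows with the number of introns compared, and it was 60.1% among 4759 introns of Z and 42.8 to 53.7% on chromosomes 11 to 15. The rate per pair of introns does not grow in this way. It was 29.7 equal pairs per 1000000 pairs of introns on W (exact Poisson interval 0.752 to 165, counting only), against 339 on Z, 295 on Z without the distal stretch and 397 to 587 on chromosomes 11 to 15. Introns of W were also longer, as given above. Among introns of 500 to 2000 bp, a range chosen after the data were seen, W had 142 equal pairs per 1000000 (3.61 to 794) and Z 867, and the interval of W contained the 762 of Z without its distal stretch but not the 804 to 1051 of chromosomes 11 to 15. Internal exons recurred on W at a rate within the range of the other chromosomes, with 4912 equal pairs per 1000000 against 5424 on Z and 4893 to 5226 on chromosomes 11 to 15. The length found in most W TUs was 135 bp, in 6 TUs, followed by 54 and 98 bp in 5 TUs each.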

How the data were processed

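According to the study's methods and the file header, the authors trimmed the reads, aligned them with HISAT2 to ASM2420605v2, split the alignments by strand, marked duplicates and merged the unique reads of all experiments. StringTie 2.2.2 was run once per strand (runs FORW and REV) with coverage minima, in reads per base, of 1.2 (spliced) and 3.5 (single-exon), at least 5 reads over a junction, a minimum length of 1000 bp and a maximum gap of 300 bp. The deposited assembly gives the authors' coverage, FPKM and TPM per transcript and coverage per exon, all over pooled reads. The depth per library is unknown. FPKM of both runs was set side by side as deposited.

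Values were computed here with Python 3.11.15, NumPy 2.4.6 and SciPy 1.17.1. Introns were the gaps between exons of a representative transcript. Chains were searched in the representatives of all nuclear chromosomes, and the Z partner was the TU with the longest unbroken run. Exon pairing, overlaps and recurrence were tested on simulated transcripts. Named TUs are the 10 highest by FPKM, the 5 longest, the 5 with most exons, the 5 overlapping pairs with the strongest weaker partner, those beside the 5 longest empty stretches, those of recurring introns and the 10 with the longest chains shared with Z. Others were named after their values were seen. W, the rule and the lists were chosen with earlier results of these data known. The assembly holds no gene names, and the RefSeq gene table, which is of another build, was not used.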

Additional observations from a re-analysis of the deposited data

How the results depend on the processing

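The pooled reads allow no replicate to be left out, and the values have no replicate error. No paired analysis was possible because the libraries were pooled before assembly. The longest empty stretch was the same under every setting run for it, and the forward share kept within its interval. The number of W TUs sharing chains with Z was 17 or 16 in most settings. With chains of 2 exons that number was 22, but 8 to 12 for chromosomes 11 to 15, and with chains of 4 it was 13 against 0. Longer chains need TUs with more exons, so the counts with chains of 2 and of 4 need not refer to the same 22 TUs. Counting TUs of at least 5 kb gave 6.02 TUs per Mb, 45.2% with 1 exon, a median span of 13.8 kb, a median FPKM of 1.42, a covered share of 20.9% and a recurring intron share of 0%. Counting every transcript gave 45.9% with 1 exon and a median span of 8.0 kb. In both settings the single-exon share stayed above that of Z and of chromosomes 11 to 15. A coverage of at least 5 reads per base gave a covered share of 20.0%, leaving out FORW.10933 (chosen after the data were seen) gave 20.2%, and counting exons alone gave 6.46%. Requiring exons to meet exons lowered the opposite-strand overlap to 14.7%. Introns of at least 100 bp recurred in 4.31%, a rate of 133 equal pairs per 1000000 against 384 on Z. Within 2 bp, the share was 17.3% for introns and 93.6% for exons. Weak transcripts under the authors' coverage minima are missing, which limits what an empty stretch shows.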
